A study of Homo sapiens with 48 samples.

Results

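The 39 genes described here encode lysosomal enzymes, lysosomal membrane proteins and factors that build or supply the lysosome. They were picked by name, and each had at least 1000 counts in total over the 48 libraries, so they are 39 of the 12535 genes that passed that minimum. By role they comprised 10 glycosidases, 7 lipid hydrolases and lipid-handling proteins, 13 cathepsins and other luminal enzymes, 5 membrane proteins, 2 accessory subunits of the proton pump and 2 genes of delivery and regulation. RNA was measured in IMR90 ER:RAS cells, a human fetal lung fibroblast line in which HRAS G12V is fused to the oestrogen receptor, so that 4-hydroxytamoxifen (4OHT) switches oncogenic RAS on and the cells enter senescence. All libraries came from this line, carried the transgene and received an siRNA. DMSO-treated (control) and 4OHT-treated (RAS) cells were transfected on day 6 of treatment with non-targeting siRNA (siNT), siRNA against the splicing factor SF3B1 (siSF3B1) or siRNA against the splicing factor RBM39 (siRBM39). RNA was taken 2 days later from cells kept in 0.5% serum. This gave 6 groups of 8 libraries, each group holding 2 siRNAs with 4 replicates. No cells without the transgene are among these libraries, so an effect of 4OHT itself and an effect of RAS cannot be told apart.

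Lysosomes degrade material delivered by endocytosis and autophagy with acid hydrolases that work in a lumen acidified by the vacuolar ATPase (V-ATPase). Most hydrolases carry a mannose 6-phosphate tag and are brought from the Golgi by receptors such as M6PR, and transcription factors of the TFEB family raise the expression of many of these genes. Senescent cells accumulate lysosomes, and the β-galactosidase activity by which they are commonly stained comes from the lysosomal enzyme encoded by GLB1.

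The libraries held 31467221 to 52734636 counts, and no 2 libraries of an arm agreed within sampling noise. The median SF3B1 level fell from 352.7 to 32.8 CPM (counts scaled to a common library size) with siSF3B1 in DMSO and from 332.4 to 26.7 CPM in 4OHT, and the median RBM39 level fell from 167.4 to 26.8 CPM and from 122 to 16.5 CPM with siRBM39. All 10 fibroblast markers were detected, and their summed level lay between 61790 and 69330 CPM in DMSO siNT and between 27550 and 29460 CPM in 4OHT siNT. The markers did not move alike: the medians of COL6A1, COL6A2 and VIM were higher in 4OHT siNT, and those of the others, COL1A1 among them, were lower. The 8 leukocyte markers summed to between 0.545 and 3.19 CPM over all libraries. The 5 measured endothelial markers summed to between 20.4 and 54.5 CPM, with TEK at a median of 30.3 CPM in DMSO siNT. Replicate 4 of siRBM39-08 (one of the pair of RBM39 siRNAs) in 4OHT stood apart from the 7 other libraries of its group. It had a fibroblast marker sum of 42790 CPM against 24160 to 29240 CPM and an epithelial marker sum of 67.3 CPM against 5.67 to 11.04 CPM. For some of the results that it moved, but not for all, a value without it is given as well. In bulk RNA, fewer cells of a kind and less RNA per cell cannot be told apart. The exons of 12 of the 39 genes overlap another protein-coding gene, 7 of them on the opposite strand (GLA, NPC1, LIPA and M6PR among them), and whether counting used the strand is not given in the sources used here.

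Levels of different genes were compared per length, as cRPKM (reads per kilobase scaled to library size, corrected for mappability). GLB1 lies at chr3:33038101-33138694, TFEB at chr6:41651716-41703997 and CTSS at chr1:150702555-150738433, all on the minus strand of GRCh37. In DMSO siNT libraries the tetraspanin CD63 led with a median of 693 cRPKM, followed by prosaposin PSAP with 506 and cathepsin B (CTSB) with 452 cRPKM. GLB1 had the rank 23 with 41.7 cRPKM, close to CTSK, LIPA and ASAH1, from which its range of 40.2 to 43.2 cRPKM did not separate it. The lowest levels belonged to TFEB with 1.67, CTSH with 1.38 and CTSS with 0.79 cRPKM, and the ranges of TFEB and CTSH overlapped. In 4OHT siNT the order changed at both ends: CTSB led with 891 cRPKM, and CTSS reached 49.3 cRPKM.

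**Figure D1:**
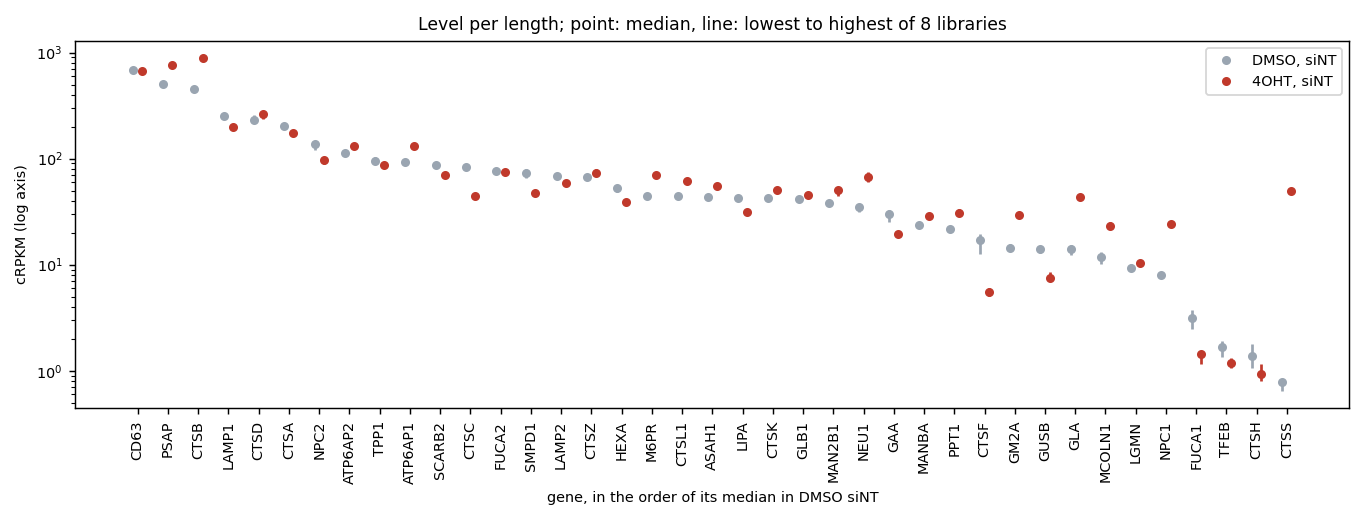
Level per length of each of the 39 lysosomal genes in siNT libraries, with points for the median and lines from the lowest to the highest of 8 libraries in DMSO (grey) and 4OHT (red), and cRPKM on a log axis. CD63, PSAP and CTSB are at the top, GLB1 is in the middle, and CTSS moves from the last place in DMSO (median 0.79) to 49.3 in 4OHT.

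The first question was what oncogenic RAS does to these genes in cells that received siNT. RAS changed 33 of 39 genes, with 19 higher and 14 lower, by edgeR's quasi-likelihood test at a Benjamini-Hochberg adjusted p under 0.05 over all 12535 genes. Among all genes 78.4% were called, 39.5% higher and 38.9% lower, so the share of lysosomal genes called was near the background. The median log2 fold change of the 39 genes was 0.21, and over all genes the medians of the 5 comparisons lay between -0.0062 and 0.026. The ranges of the groups did not overlap for 32 of 39 genes, against 69.7% of all genes. A change of over 2-fold was seen in 9 genes, with no share of all genes set beside this count. CTSS, GLA, NPC1, GM2A, CTSB, NEU1 and MCOLN1 were higher, and CTSF and FUCA1 were lower.

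CTSS encodes cathepsin S, a cysteine protease best known from antigen-presenting cells. Its level was 2.39–3.15 CPM (median 2.94) in DMSO siNT and 186–199.9 CPM (median 193) in 4OHT siNT. The groups lay far apart, and the log2 fold change ± SE was 6.06 ± 0.10 (adjusted p = 7.72e-44), that is, a 66.7-fold rise. Leukocytes also express CTSS, and their markers summed to 0.545 to 1.04 CPM in DMSO siNT and 2.01 to 2.38 CPM in 4OHT siNT, with CD3E at 0 in all 16 siNT libraries, PTPRC at a median of 0.0818 CPM in 4OHT siNT and only CSF1R above 1 CPM, at a median of 1.38 CPM. The part of such cells in the CTSS level was not tested. Among the 13 luminal proteases and related enzymes, 6 rose and 4 fell with RAS. CTSB, which had the highest cRPKM among them, rose by 1.04 ± 0.06 on the log2 scale, and the rises of PPT1, CTSL1 (the cathepsin L gene CTSL), CTSK and LGMN were between 0.24 and 0.61. CTSF, a cysteine cathepsin, fell from 24.5–37.6 CPM (median 32.5) to 10.2–11.96 CPM (median 11.04), with no overlap and a log2 fold change of -1.52 ± 0.13 (adjusted p = 1.25e-14). CTSC, the dipeptidyl peptidase that activates serine proteases of granules, fell from 146–152 CPM (median 148) to 78.5–86.95 CPM (median 83.2), also without overlap (log2 fold change -0.84 ± 0.06, adjusted p = 2.80e-17). CTSH and CTSA were the other members that fell, by 0.47 and 0.17, while CTSD (0.21 ± 0.13), CTSZ (0.21 ± 0.11) and TPP1 (-0.08 ± 0.08) did not pass the test.

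Among the 10 glycosidases, 5 rose and 4 fell. GLA, the α-galactosidase A that cleaves globotriaosylceramide, went from 14.97–18.6 CPM (median 17.2) to 52.03–58.3 CPM (median 55.7). The ranges were far apart, and the log2 fold change was 1.69 ± 0.06 (adjusted p = 2.90e-30). NEU1, the lysosomal sialidase, rose by 1.03 ± 0.07, and the mannosidases MAN2B1 and MANBA rose by 0.44 ± 0.07 and 0.34 ± 0.05. GLB1 rose from 98.6–105 CPM (median 102) to 115–122 CPM (median 118). This was a separation of the ranges but a small change, 0.22 ± 0.06 (adjusted p = 0.000793) or 1.16-fold. FUCA1, the α-fucosidase, fell from 4.67–7.11 CPM (median 5.98) to 2.36–3.09 CPM (median 2.87) (log2 fold change -1.04 ± 0.11, adjusted p = 2.12e-12), again without overlap. The β-glucuronidase GUSB fell by 0.81, the glycogen-degrading GAA by 0.56 and the β-hexosaminidase subunit HEXA by 0.37, whereas the fucosidase FUCA2 did not pass the test (0.04 ± 0.04).

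The 7 lipid genes all changed, 4 up and 3 down. NPC1, the membrane protein that exports cholesterol from the lysosome, went from 35.3–36.8 CPM (median 36.1) to 109.6–119.7 CPM (median 113) (log2 fold change 1.66 ± 0.08, adjusted p = 3.05e-23). Its soluble partner NPC2 moved the other way and fell by 0.40. The GM2 ganglioside activator GM2A rose by 1.07 ± 0.06, PSAP, the precursor of the saposins, by 0.67 ± 0.06 and the acid ceramidase ASAH1 by 0.42 ± 0.06. The acid sphingomyelinase SMPD1 and the acid lipase LIPA fell by 0.55 and 0.37. Of the membrane proteins, the calcium channel MCOLN1 rose by 1.03 ± 0.10, LAMP1 and SCARB2 fell by 0.28 and 0.23, and LAMP2 (-0.14 ± 0.09) and CD63 (0.01 ± 0.09) did not pass the test. Both accessory subunits of the proton pump rose, ATP6AP1 by 0.58 ± 0.06 and ATP6AP2 by 0.29 ± 0.05, as did M6PR by 0.73 ± 0.05. TFEB was low in both groups, with 2.96–4.34 CPM (median 3.66) in DMSO siNT and 2.49–3.04 CPM (median 2.74) in 4OHT siNT. Its ranges overlapped, and it fell by 0.38 (adjusted p = 0.023).

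**Figure D2:**
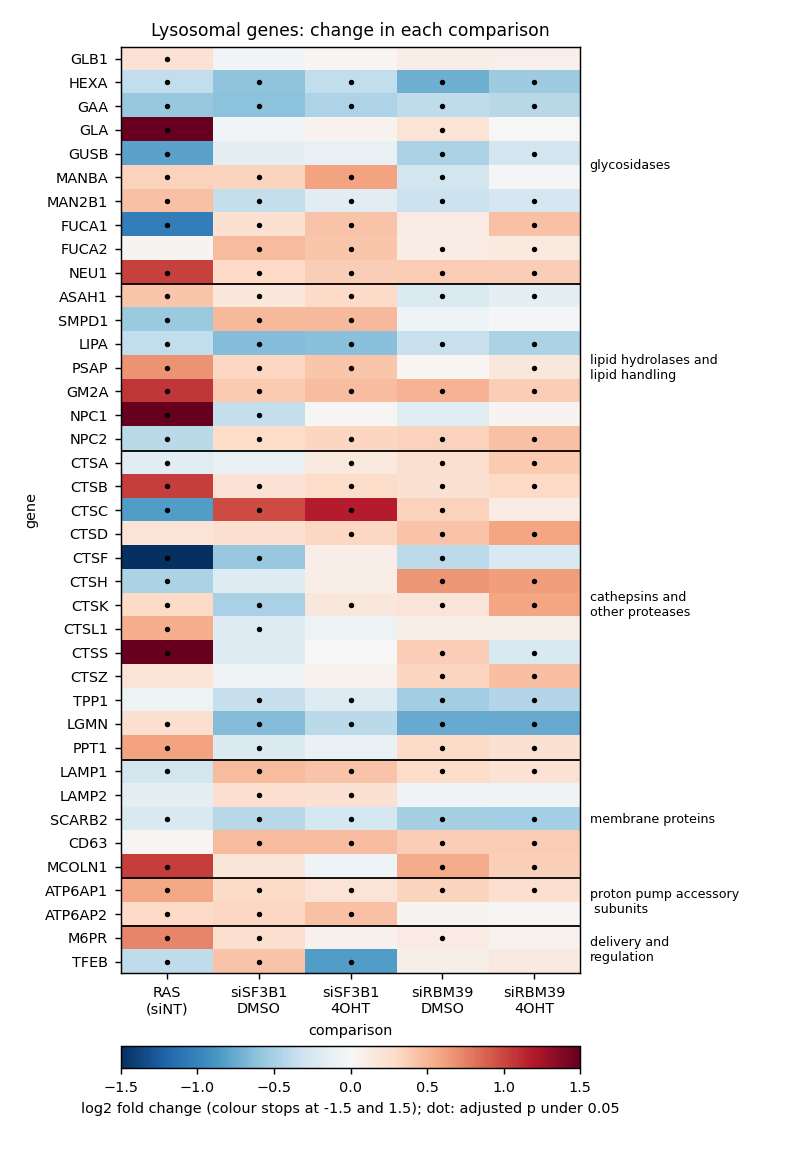
Log2 fold change of each of the 39 lysosomal genes in 5 comparisons, grouped by role, red for higher and blue for lower levels (colour limited to 1.5 on either side) and dots for genes past the adjusted p of 0.05. The first column (4OHT against DMSO in siNT) holds the strongest colours, with CTSS at 6.06 beyond the scale, and CTSC is blue there and red in both siSF3B1 columns.

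**Figure D3:**
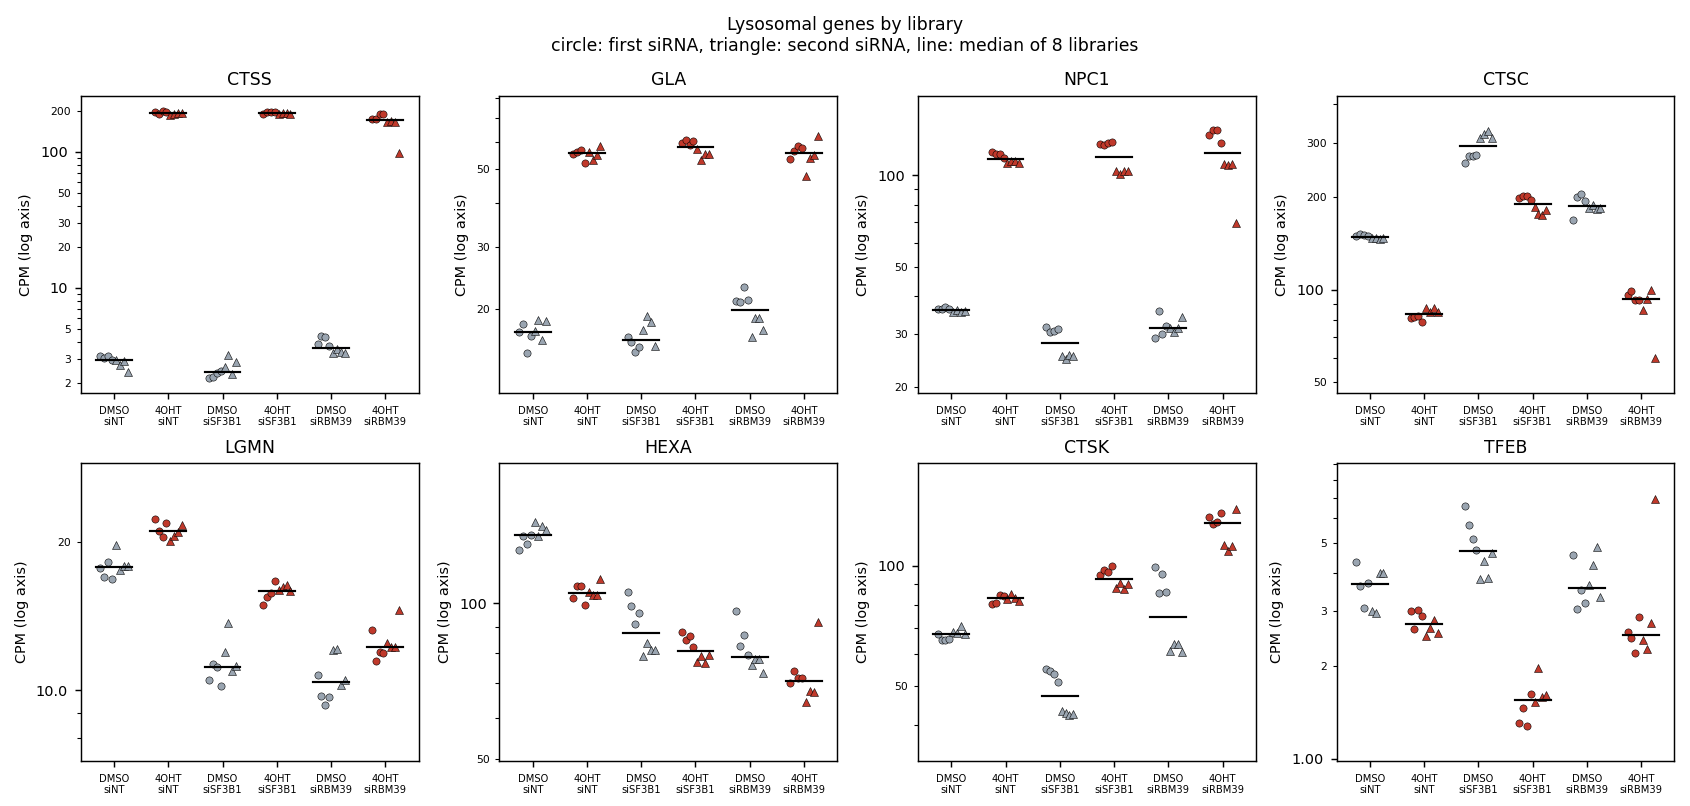
CPM of 8 lysosomal genes in each of the 48 libraries on a log axis, with 1 panel per gene, 1 column per group, circles for the first and triangles for the second siRNA, and a line at the median of 8. CTSS, GLA and NPC1 separate DMSO from 4OHT in every siRNA group, CTSC is highest in DMSO siSF3B1, and TFEB is lowest in 4OHT siSF3B1 (median 1.55 CPM).

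The second question was how the same genes respond when SF3B1, a core component of the U2 snRNP that recognises branch points, is depleted. The knockdown and the siRBM39 comparisons below share the siNT libraries. With siSF3B1 in DMSO, 30 of 39 genes changed, 18 higher and 12 lower, against 72.3% of all genes (34.8% higher and 37.5% lower). In 4OHT, 27 changed, 19 higher and 8 lower, against 75.1% of all genes (36.8% higher and 38.3% lower). The shares called were near the background in both treatments, and the median log2 fold changes of the 39 genes were 0.15 and 0.10. The ranges of the groups did not overlap for 21 of 39 genes in DMSO and 25 in 4OHT, against 52.5% and 63.1% of all genes.

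CTSC rose most in both treatments. It went from 146–152 CPM (median 148) in DMSO siNT to 258–328 CPM (median 292) in DMSO siSF3B1 (log2 fold change 0.98 ± 0.06, adjusted p = 2.82e-19). In 4OHT it rose from 78.5–86.95 CPM (median 83.2) to 175–201 CPM (median 189.9) (log2 fold change 1.18 ± 0.06, adjusted p = 2.17e-22), so that its level with both RAS and siSF3B1 was above that of DMSO siNT cells. No library of a siSF3B1 group overlapped its siNT group. SMPD1 rose from 153–184 CPM (median 168) to 218–263 CPM (median 234) in DMSO (log2 fold change 0.49 ± 0.06, adjusted p = 5.13e-10), the opposite of its change with RAS. FUCA2 rose from 116–125 CPM (median 121) to 163–175 CPM (median 168) in DMSO (log2 fold change 0.48 ± 0.04, adjusted p = 8.08e-14). The largest rises in 4OHT after CTSC were those of MANBA, from 79–85.5 CPM (median 82) to 120.1–129 CPM (median 126) (log2 fold change 0.61 ± 0.05, adjusted p = 8.79e-15), and SMPD1, from 111–121 CPM (median 115) to 150.0–171 CPM (median 163) (log2 fold change 0.49 ± 0.06, adjusted p = 4.25e-10). These rises were without overlap between the groups. CTSC, SMPD1, FUCA2 and MANBA also passed the test in the other treatment.

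LGMN, the asparaginyl endopeptidase that processes cathepsins, went down from 16.8–19.7 CPM (median 17.8) to 10.2–13.7 CPM (median 11.2) with siSF3B1 in DMSO (log2 fold change -0.65 ± 0.05, adjusted p = 4.20e-15). LIPA went from 105–121 CPM (median 112) to 59.8–84.2 CPM (median 70.1) (log2 fold change -0.65 ± 0.07, adjusted p = 3.04e-11), and GAA from 92.3–118 CPM (median 107) to 59.5–81.9 CPM (median 68.8) (log2 fold change -0.62 ± 0.11, adjusted p = 1.30e-06). The ranges of these 3 genes were separate in DMSO. In 4OHT the largest fall was that of TFEB, from 2.49–3.04 CPM (median 2.74) to 1.28–1.97 CPM (median 1.55) (log2 fold change -0.84 ± 0.17, adjusted p = 1.47e-05), without overlap. LIPA fell in 4OHT from 84.3–89.96 CPM (median 86.8) to 50.4–60.7 CPM (median 55.97) (log2 fold change -0.63 ± 0.07, adjusted p = 5.28e-11), and GAA from 67.99–74.8 CPM (median 73.4) to 48.8–56.6 CPM (median 51.6) (log2 fold change -0.47 ± 0.11, adjusted p = 0.000123), again without overlap. The lipid genes that rose in both treatments besides SMPD1 were PSAP, GM2A, NPC2 and ASAH1, with log2 fold changes between 0.15 and 0.47, and the membrane proteins LAMP1, CD63 and LAMP2 rose in both by 0.23 to 0.48, while SCARB2 fell by 0.42 and 0.26. Among the proteases, 2 rose and 6 fell in DMSO, and 5 rose and 2 fell in 4OHT. GLB1 passed the test in neither treatment (-0.04 ± 0.06 and 0.03 ± 0.06). The SF3B1 siRNAs did not act alike on each gene: PPT1 fell with siSF3B1-13 in DMSO by 0.50 (adjusted p = 2.50e-12) and was at 0.01 with siSF3B1-16 (adjusted p = 0.841), and CTSB rose by 0.41 and was at -0.02 (adjusted p = 0.738).

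The third question was the same for RBM39, an RNA-binding protein that acts as a splicing cofactor. With siRBM39 in DMSO, 30 of 39 lysosomal genes changed, 19 higher and 11 lower, whereas 45% of all genes were called (22.8% higher and 22.2% lower). In 4OHT, 27 changed, 17 higher and 10 lower, against 54.0% of all genes (28.1% higher and 25.9% lower). The median log2 fold changes were 0.11 and 0.09. The ranges of the groups did not overlap for 19 of 39 genes in DMSO and 16 in 4OHT, against 19.4% and 22.5% of all genes. With both siRNAs pooled, the counts of the 39 genes were therefore above the background in these 2 comparisons, with no test of that difference. In DMSO the lean to higher levels depended on the siRNA and the control. With siRBM39-08 alone, 20 genes were called, 8 higher and 12 lower. The other RBM39 siRNA alone gave 32, 20 higher and 12 lower. With siNT1 alone as control 23 were called, 14 higher and 9 lower, and with siNT2 alone 20, 9 higher and 11 lower. In 4OHT, siRBM39-08 alone gave 25, 17 higher and 8 lower, with replicate 4, the library that stood apart, among its libraries. No count for siRBM39-08 without that library is given here. In 4OHT the other RBM39 siRNA alone gave 30, 21 higher and 9 lower. No background share was set beside these counts. Without replicate 4 of siRBM39-08, 28 genes were called in 4OHT, and 25 of them were shared in the same direction. ASAH1 and PSAP then lost their calls (adjusted p = 0.0896 and 0.0859), and CTSC, CTSF and GLB1 gained one.

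With both siRNAs pooled, 9 of the 13 proteases and related enzymes rose and 3 fell in DMSO, and 7 rose and 3 fell in 4OHT. CTSH, an aminopeptidase of low level in these cells, was at 2.18–3.66 CPM (median 2.83) in DMSO siNT and 2.79–6.74 CPM (median 4.54) in DMSO siRBM39 (log2 fold change 0.66 ± 0.15, adjusted p = 0.00023). Its ranges overlapped, and the rise rested on one siRNA: siRBM39-06 libraries held 5.56 to 6.74 CPM and siRBM39-08 libraries 2.79 to 3.51 CPM, with a log2 fold change of 0.10 for siRBM39-08 alone (adjusted p = 0.573). In 4OHT it went from 1.72–2.52 CPM (median 2.00) to 2.17–4.54 CPM (median 3.27) (log2 fold change 0.63 ± 0.15, adjusted p = 0.000582), also with overlapping ranges. There the siRBM39-06 libraries held 3.18 to 3.95 CPM and the siRBM39-08 libraries 2.17 to 4.54 CPM, with a median of 2.49 CPM. CTSK, the collagen-degrading cathepsin K, rose in 4OHT from 80.03–85.2 CPM (median 82.9) to 109–139 CPM (median 128) (log2 fold change 0.59 ± 0.08, adjusted p = 1.25e-08), without overlap. In DMSO its siRNAs diverged, with 85.6 to 99.1 CPM for siRBM39-06 and 60.9 to 63.7 CPM for siRBM39-08, around siNT values of 65.2–70.8 CPM (median 67.6). CTSD, the main aspartic protease, rose in 4OHT from 346–391 CPM (median 380.3) to 439–1179.6 CPM (median 472) (log2 fold change 0.59 ± 0.13, adjusted p = 0.000112). The highest of these values came from replicate 4 of siRBM39-08, and without it the log2 fold change was 0.35 (adjusted p = 0.000244). CTSZ behaved likewise, with 0.45 with and 0.22 without that library.

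MCOLN1 rose with siRBM39 in DMSO from 20.6–26.05 CPM (median 23.2) to 26.9–46.2 CPM (median 32.99) (log2 fold change 0.55 ± 0.10, adjusted p = 1.03e-05), and GM2A from 48.2–56.8 CPM (median 52.2) to 64.2–87.5 CPM (median 73.7) (log2 fold change 0.52 ± 0.06, adjusted p = 1.27e-09). Neither gene's groups overlapped in DMSO. LGMN fell from 16.8–19.7 CPM (median 17.8) to 9.36–12.1 CPM (median 10.4) in DMSO (log2 fold change -0.76 ± 0.05, adjusted p = 1.30e-16) and from 20.1–22.2 CPM (median 21.03) to 11.5–14.6 CPM (median 12.3) in 4OHT (log2 fold change -0.75 ± 0.05, adjusted p = 8.10e-17). HEXA fell from 127–143 CPM (median 135) to 73.4–96.4 CPM (median 78.8) in DMSO (log2 fold change -0.74 ± 0.06, adjusted p = 4.58e-15) and from 99.2–111 CPM (median 105) to 64.5–92.1 CPM (median 70.9) in 4OHT (log2 fold change -0.54 ± 0.06, adjusted p = 4.79e-11). TPP1, the tripeptidyl peptidase, fell from 302–343 CPM (median 316) to 189–261 CPM (median 215) in DMSO (log2 fold change -0.53 ± 0.08, adjusted p = 1.30e-06). All of these falls were without overlap. SCARB2, the receptor that carries β-glucocerebrosidase, went from 313–331 CPM (median 322) to 147–246 CPM (median 232) in 4OHT (log2 fold change -0.52 ± 0.07, adjusted p = 1.22e-08), with the lowest value from replicate 4 of siRBM39-08, and at -0.45 without it. LGMN, HEXA, TPP1 and SCARB2 were also lower after siSF3B1 in each treatment. GAA fell in 4OHT by 0.41, or by 0.59 without that library. Of the glycosidases, 3 rose and 5 fell in DMSO and 3 rose and 4 fell in 4OHT. GLB1 did not pass the test (0.10 ± 0.06 in DMSO and 0.08 ± 0.06 in 4OHT). In DMSO its siRNAs lay on either side of siNT, with 116 to 127 CPM for siRBM39-06 (log2 fold change 0.27, adjusted p = 1.29e-09) and 94.1 to 97.6 CPM for siRBM39-08 (-0.09, adjusted p = 0.0857). In 4OHT siRBM39-06 gave 0.21 (adjusted p = 3.89e-07) and siRBM39-08 -0.03 (adjusted p = 0.611), and without replicate 4 of siRBM39-08 its log2 fold change in 4OHT was 0.13 (adjusted p = 0.022). TFEB was at 3.05–4.85 CPM (median 3.58) and 2.2–6.95 CPM (median 2.51) in the siRBM39 groups, and its log2 fold change in 4OHT turned from 0.14 to -0.14 without that library, past the threshold in neither case.

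Whether a knockdown acted differently in RAS and control cells was tested as an interaction, the log2 fold change in 4OHT minus that in DMSO. For siSF3B1, 9 of 39 genes passed, 7 with a higher and 2 with a lower value in 4OHT, against 36.7% of all genes (16.9% higher and 19.8% lower). TFEB differed most, with an interaction of -1.27 ± 0.22 (adjusted p = 9.92e-06): siSF3B1 raised it in DMSO to 3.8–6.55 CPM (median 4.69) and lowered it in 4OHT. The DMSO range of TFEB overlapped that of siNT (2.96–4.34 CPM). In DMSO the siSF3B1-13 libraries held 4.75 to 6.55 CPM and the siSF3B1-16 libraries 3.8 to 4.64 CPM. CTSK moved the other way. It fell with siSF3B1 in DMSO from 65.2–70.8 CPM (median 67.6) to 42.2–55.3 CPM (median 47.2) (-0.48 ± 0.08) and rose in 4OHT from 80.03–85.2 CPM (median 82.9) to 87.6–100.1 CPM (median 92.7) (0.17 ± 0.08), an interaction of 0.65 ± 0.11 (adjusted p = 5.28e-06). For CTSF the interaction was 0.67 ± 0.18 (adjusted p = 0.00316), with DMSO siSF3B1 libraries at 17.9–24.9 CPM (median 21.8) and 4OHT siSF3B1 libraries at 9.42–13.4 CPM (median 12.3). NPC1 fell with siSF3B1 in DMSO to 24.9–31.6 CPM (median 28.01) and was at 101–128 CPM (median 115) in 4OHT (interaction 0.37 ± 0.12, adjusted p = 0.0103). MANBA, CTSA, LGMN and HEXA had interactions of 0.23 to 0.27, and M6PR, at 133–147 CPM (median 137) and 190.3–214 CPM (median 201), had -0.19 (adjusted p = 0.0157). The M6PR call was lost in 8 alternatives (adjusted p from 0.0522 to 0.207), among them each SF3B1 siRNA alone and each control alone. The call of NPC1 was lost with siSF3B1-16 alone (adjusted p = 0.0556), and those of NPC1 and CTSF with siNT1 alone (0.0933 and 0.101). With siNT1 alone as control, 3 genes passed.

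For siRBM39, the interaction was called in 3 of 39 genes, 2 higher and 1 lower, against 14.2% of all genes (6.18% higher and 7.98% lower). CTSK was again among them (interaction 0.40 ± 0.11, adjusted p = 0.00994), with MANBA (interaction 0.26 ± 0.07, adjusted p = 0.00956), which fell in DMSO to 46.2–62.7 CPM (median 52.99) and was at 75.7–89.7 CPM (median 78.8) in 4OHT. CTSS had the lower value (interaction -0.59 ± 0.12, adjusted p = 0.000314). It rose with siRBM39 in DMSO from its low level to 3.3–4.46 CPM (median 3.63), and in 4OHT it fell to 98.7–189.6 CPM (median 171) (log2 fold change -0.22 ± 0.07, adjusted p = 0.00949), or, without replicate 4 of siRBM39-08, by 0.14 (adjusted p = 0.0112). The CTSK call was lost with siNT1 alone (adjusted p = 0.114), with siNT2 alone (0.0571) and without the replicates numbered 4 (0.0633), and the MANBA call with siNT1 alone (0.0782). Without replicate 4 of siRBM39-08 the count was 6, with GLA, NPC1 and ATP6AP1 added, and the CTSS interaction was -0.51. The siRNAs differed in direction, with 4 genes higher and 7 lower for siRBM39-06 alone and 10 higher and 1 lower for siRBM39-08 alone.

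Other genes of the organelle were counted from lists of V-ATPase subunits, further hydrolases, further membrane and transport proteins, sorting factors and regulators. Over all genes, 39.5% were called higher and 38.9% lower with RAS. The shares were 34.8% and 37.5% with siSF3B1 in DMSO, and 36.8% and 38.3% in 4OHT. With siRBM39 they were 22.8% and 22.2% in DMSO, and 28.1% and 25.9% in 4OHT. No list was tested against these shares. With RAS, 14 of 14 V-ATPase subunits rose, with log2 fold changes of 0.15 to 1.5 and a median of 0.90, led by ATP6V0B and ATP6V1G1. Its 14 subunits were called 13 up and 1 down with siSF3B1 in DMSO, 10 up and 2 down in 4OHT, 10 up and 0 down with siRBM39 in DMSO, and 9 up and 1 down in 4OHT. The subunits that fell were ATP6V0A2 with siSF3B1 in DMSO (-0.21), ATP6V0A2 (-0.54) and ATP6V0A1 (-0.50) with siSF3B1 in 4OHT, and ATP6V0A1 (-0.66) with siRBM39 in 4OHT. Of 33 further hydrolases, 14 rose and 16 fell with RAS, with the acid phosphatase ACP5 at 3.8 and the nuclease DNASE2 at -1.28. Of 26 further membrane and transport genes, 12 rose and 7 fell with RAS, with LAPTM5 going from a median of 0.0978 to 8.04 CPM. Of 23 sorting genes 10 rose and 9 fell, and of 13 regulators 6 rose and 2 fell. After siSF3B1, the hydrolases were called 8 up and 14 down in DMSO and 12 up and 9 down in 4OHT. After siRBM39, they were called 8 up and 14 down, and 6 up and 13 down. The median log2 fold changes of the V-ATPase list in the 4 knockdown comparisons, in the same order, were 0.48, 0.29, 0.32 and 0.18, beside 0.15, 0.10, 0.11 and 0.09 for the 39 genes.

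**Figure D4:**
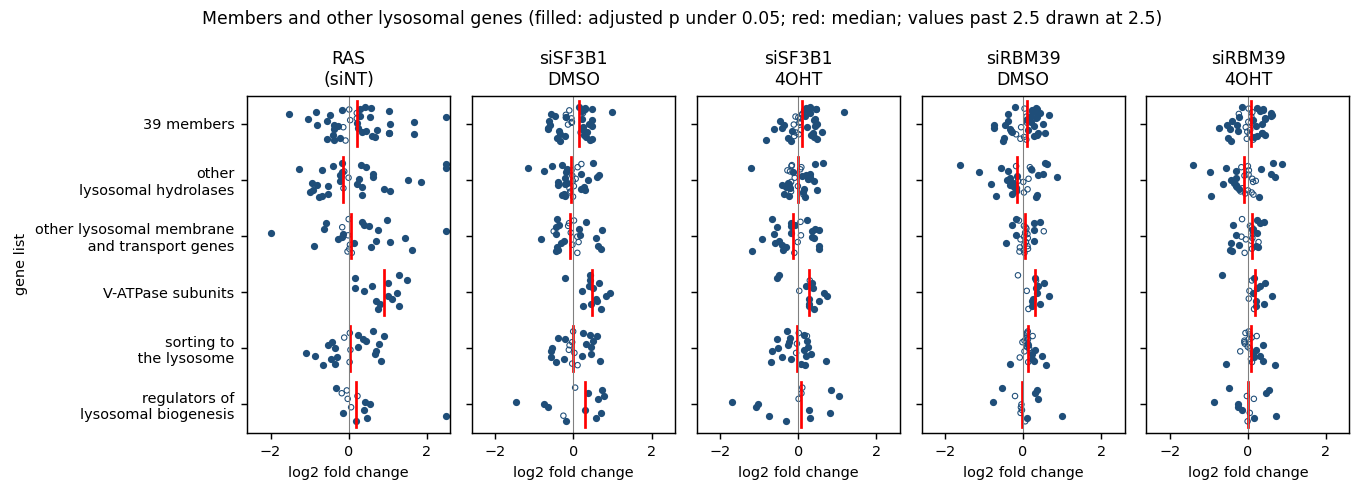
Log2 fold changes of the 39 lysosomal genes and of 5 further lists of lysosomal genes in 5 comparisons, with 1 point per gene, filled points for genes past the adjusted p of 0.05, a red bar for the median, and values beyond 2.5 drawn at the edge. The V-ATPase subunits lie above 0 with RAS (median 0.90), while the other lists spread on both sides of 0.

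TFEB and its relatives bind an E-box of the CLEAR type, so promoters were searched for CACGTG, for TCACGTGA and for GTCACGTG on both strands, where the longer motifs contain the first. RefSeq promoters (GRCh38.p14, from 250 bases before to 50 after the gene start) were at hand for 30 of the 39 genes. CACGTG was in 8 of 30 (26.7%) against 7.43% of 27305 promoters, GTCACGTG in 5 of 30 (16.7%) against 2.53%, and TCACGTGA in 4 of 30 (13.3%) against 1.04%. The 27305 promoters were not limited to the genes whose RNA was tested here, and the difference in shares was not tested. The promoters of LAMP1, GAA, MCOLN1 and CTSA held TCACGTGA, shown in capitals with 20 bases on either side on the gene's strand, because these genes can be set beside the level of TFEB. LAMP1 is at chr13:113297190-113297237 (plus strand), GAA at chr17:80101484-80101531 (plus strand), MCOLN1 at chr19:7522562-7522609 (plus strand) and CTSA at chr20:45891289-45891336 (plus strand).
LAMP1: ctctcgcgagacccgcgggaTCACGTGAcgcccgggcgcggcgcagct
GAA: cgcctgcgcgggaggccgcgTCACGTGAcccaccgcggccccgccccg
MCOLN1: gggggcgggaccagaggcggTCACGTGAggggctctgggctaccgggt
CTSA: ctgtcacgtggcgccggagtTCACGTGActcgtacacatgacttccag
The 4 genes did not move together. With RAS, MCOLN1 rose and LAMP1, GAA and CTSA fell. With siSF3B1 in 4OHT, where TFEB fell, LAMP1 and CTSA rose, GAA fell and MCOLN1 did not pass the test (-0.06 ± 0.10). The medians of MITF, a relative of TFEB, were 24.4 CPM in DMSO siNT and 23.55 CPM in 4OHT siNT. With siSF3B1 they were 38.4 CPM in DMSO and 23.85 CPM in 4OHT. TFEB and MITF were measured as RNA only, and a part of TFEB or its relatives in these changes was not tested. With siRBM39, LAMP1, MCOLN1 and CTSA rose and GAA fell in both treatments. The rise of MCOLN1 in 4OHT was mostly that of siRBM39-06, at 62.4 to 77.1 CPM against 45.02–51.6 CPM (median 47.4) in siNT. The siRBM39-08 libraries held 43.9 to 81.9 CPM with a median of 45.3 CPM, inside the siNT range (log2 fold change 0.21, adjusted p = 0.0488).

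Splicing was read as PSI, the percent of transcripts that include an exon, keep an intron or use a splice site. The event table listed 829 events in the 39 genes. Of these, 488 had enough coverage in each library and 88 also varied by at least 5 points and passed the intron balance filter, in 25 genes: 60 cassette exons, 22 introns, 3 alternative 3' sites and 3 alternative 5' sites. Calls needed an adjusted p below 0.05 (limma on the logit of PSI, over all 13839 events) and mean PSI values that differed by 5 points or more. In all, 27 events in 18 genes were called in at least 1 comparison, among them 19 exons and 5 introns. The table is named for hg19, but its coordinates fit GRCh38, and locations are given here in GRCh37 from the annotation.

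With RAS, 3 of 88 events were called, each with a lower PSI (background 0.882%). The largest concerned a 9-base exon of PSAP in the part that encodes saposin B, at chr10:73583645-73583653 (minus strand). The exon is coding in the 1 annotated transcript that holds it, and its length keeps the reading frame. It is shown in capitals with 40 bases before and 20 after it, with the next exon's start, because it was called without overlap in all 5 comparisons.
PSAP 9-base exon: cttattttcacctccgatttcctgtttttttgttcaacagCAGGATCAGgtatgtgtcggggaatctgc
PSAP next exon: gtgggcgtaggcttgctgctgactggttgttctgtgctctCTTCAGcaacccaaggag
Its PSI was 59.9–64.7% (median 61.9%) in DMSO siNT and 30.2–33.8% (median 32.2%) in 4OHT siNT, a difference of -29.97 points (adjusted p = 1.12e-11). With siSF3B1 it was 33.2–42.5% (median 35.7%) in DMSO and 12.9–20.1% (median 16.3%) in 4OHT, and with siRBM39 it was 76.4–83.1% (median 80.1%) in DMSO and 56.3–66.5% (median 61.7%) in 4OHT. Knockdown of SF3B1 thus lowered it, by 24.8 and 15.8 points, and knockdown of RBM39 raised it, by 17.8 and 29.9 points (adjusted p at most 2.12e-08 in these 4 comparisons). In each of the 5 comparisons the groups did not overlap, each siRNA alone gave the same sign, and at least 391 reads lay behind each value. A second called PSAP event is listed as an alternative 3' site of 6 bases (CTTCAG, chr10:73581765-73581770, in capitals in the second sequence), and its PSI was 11.3–20.4% (median 13.9%) in DMSO siNT and 4.14–7.48% (median 6.34%) in 4OHT siNT. With siSF3B1 it was 4.66–8.1% (median 6.13%) in DMSO and 1.52–3.42% (median 1.99%) in 4OHT, and with siRBM39 18.9–33.03% (median 26.8%) in DMSO and 11.7–17.5% (median 15.1%) in 4OHT. It was called in 4 of the 5 comparisons, with the sign of the 9-base exon, and its difference with siSF3B1 in 4OHT (-3.69 points) was below the minimum of 5 points. The bases before CTTCAG are ct, not ag, and CTTCAG differs from the last 6 bases of the 9-base exon, GATCAG, at 2 of 6 positions. From which transcript its reads came was not tested. The third event with RAS, an intron of MCOLN1, went down by 5.84 points with overlapping ranges (adjusted p = 0.0335).

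With siSF3B1, 17 of 88 events were called in DMSO (background 19.8%), 4 higher and 13 lower (5.25% and 14.6% of all events). In 4OHT, 18 were called (background 23%), 5 higher and 13 lower (6.7% and 16.3%). Of 60 exons, 0 were higher and 11 lower in DMSO, and 1 was higher and 13 lower in 4OHT. Over all cassette exons 26.7% and 29.9% were called. The shares of the lysosomal exons were somewhat below these values, with no test of that difference. Of 22 introns, 4 were called in each treatment, all higher, against 11.1% and 14.8% of all introns. Of the 19 exons called in any comparison, 18 equal an annotated exon with coding sequence in at least 1 transcript, and 13 have a length that is not a multiple of 3.

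The exons that lost most were in CTSL1, ASAH1 and MANBA. The CTSL1 exon (118 bases, chr9:90345296-90345413, plus strand) is coding in 17 of the 28 transcripts that hold it, and its loss shifts the frame. Its PSI was 93.3–100% (median 99.4%) in DMSO siNT and 96.7–100% (median 98.5%) in 4OHT siNT, 57.6–79.7% (median 63.9%) in DMSO siSF3B1 and 57.9–71.3% (median 65.1%) in 4OHT siSF3B1, differences of -32.5 and -33.2 points (adjusted p = 1.60e-15 and 9.91e-16). The total level of CTSL1 was -0.19 ± 0.06 and -0.07 ± 0.06 on the log2 scale in these comparisons. The 124-base exon of ASAH1, whose length is also not a multiple of 3, went from 99.1–100% (median 100%) to 77.2–89.3% (median 80.8%) in DMSO and from 99.2–100% (median 100%) to 72.5–83.5% (median 79.8%) in 4OHT (-17.8 and -20.4 points). The MANBA exon (87 bases, chr4:103590120-103590206, minus strand) keeps the frame. It went from 100% in all 8 libraries to 78.3–97.5% (median 87.8%) in DMSO and from 98.4–100% (median 100%) to 78.3–89.95% (median 83.8%) in 4OHT (-12.9 and -16.3 points). None of these ranges overlapped, and ASAH1 and MANBA rose in total level in the same comparisons. The CTSL1 and MANBA exons are printed in capitals, with 40 bases before and 20 after, to show the 3' splice sites, the part of the intron that SF3B1-containing particles help to select.
CTSL1 118-base exon: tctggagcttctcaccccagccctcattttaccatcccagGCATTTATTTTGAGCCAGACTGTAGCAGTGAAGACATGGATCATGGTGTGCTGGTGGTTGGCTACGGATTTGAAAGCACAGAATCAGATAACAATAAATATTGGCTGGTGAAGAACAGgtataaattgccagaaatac
MANBA 87-base exon: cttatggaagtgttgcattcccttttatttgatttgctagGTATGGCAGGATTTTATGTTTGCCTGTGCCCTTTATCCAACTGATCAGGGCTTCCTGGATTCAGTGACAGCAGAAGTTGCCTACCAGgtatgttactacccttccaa
Smaller losses were called in both treatments in exons of PPT1 (-12.7 and -11.4 points), ATP6AP2 (-12.3 and -9.27), CTSB (-8.53 and -8.97), CTSK (-8.48 and -7.43), M6PR (-6.46 and -11.3) and GLB1 (-5.57 and -5.07). The GLB1 exon has 59 bases, and its PSI was 100% in all 8 libraries in 4OHT siNT and 92.1–97.97% (median 95.5%) in 4OHT siSF3B1. Called in DMSO alone were a HEXA exon of 181 bases (-6.27 points), a CTSL1 alternative 5' site (-7.1) and the 6-base PSAP site (-8.7), and called in 4OHT alone were exons of CTSC (-8.99), TPP1 (-5.15), ATP6AP2 (-9.07) and, with a gain, LAMP2 (10.4 points). Such a call in 1 treatment does not show a difference between treatments, and 0 of 88 events passed the interaction test.

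Introns of 3 genes were kept after siSF3B1. The MCOLN1 intron (235 bases, chr19:7592515-7592749, plus strand, 69.4% GC) had a PSI of 4.35–15.2% (median 9.67%) in DMSO siNT and 0–8.24% (median 3.37%) in 4OHT siNT. With siSF3B1 it reached 43.9–70% (median 49.5%) in DMSO and 30.6–52.9% (median 42.5%) in 4OHT, 41.9 and 38.04 points higher (adjusted p = 5.54e-11 and 7.03e-14). The groups were far apart, although as few as 19 reads lay behind a value. The longer called LAMP1 intron (933 bases, chr13:113974786-113975718, plus strand, 49.4% GC) went from 4.00–8.11% (median 4.5%) to 24.1–39.4% (median 27.7%) in DMSO and from 2.7–14.6% (median 6.22%) to 27.3–41.1% (median 31.8%) in 4OHT. The next LAMP1 intron, of 86 bases, rose by 5.49 and 6.35 points. The NPC1 intron (1070 bases, chr18:21112249-21113318, minus strand, 44.1% GC) rose from 0–2.32% (median 0%) to 3.04–14.4% (median 8.4%) and from 0–2.16% (median 0.455%) to 4.04–12.8% (median 8.56%). None of these groups overlapped, and all of these introns lie between coding exons of at least 1 annotated transcript. The introns of MCOLN1 and LAMP1 with the largest gains are shown by their ends, exon bases in capitals, to show their splice sites.
MCOLN1 intron start: AATTCCACAAgtactgcctgctcactcgag
MCOLN1 intron end: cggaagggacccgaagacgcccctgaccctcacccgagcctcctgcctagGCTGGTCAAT
LAMP1 intron start: GTTCGGGATGgtgaggctggggcggcacct
LAMP1 intron end: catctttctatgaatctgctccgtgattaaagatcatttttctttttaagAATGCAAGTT
MCOLN1 did not pass the test of total level with siSF3B1 (0.18 ± 0.10 in DMSO and -0.06 ± 0.10 in 4OHT), and LAMP1 rose by 0.48 ± 0.06 and 0.42 ± 0.06.

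**Figure D5:**
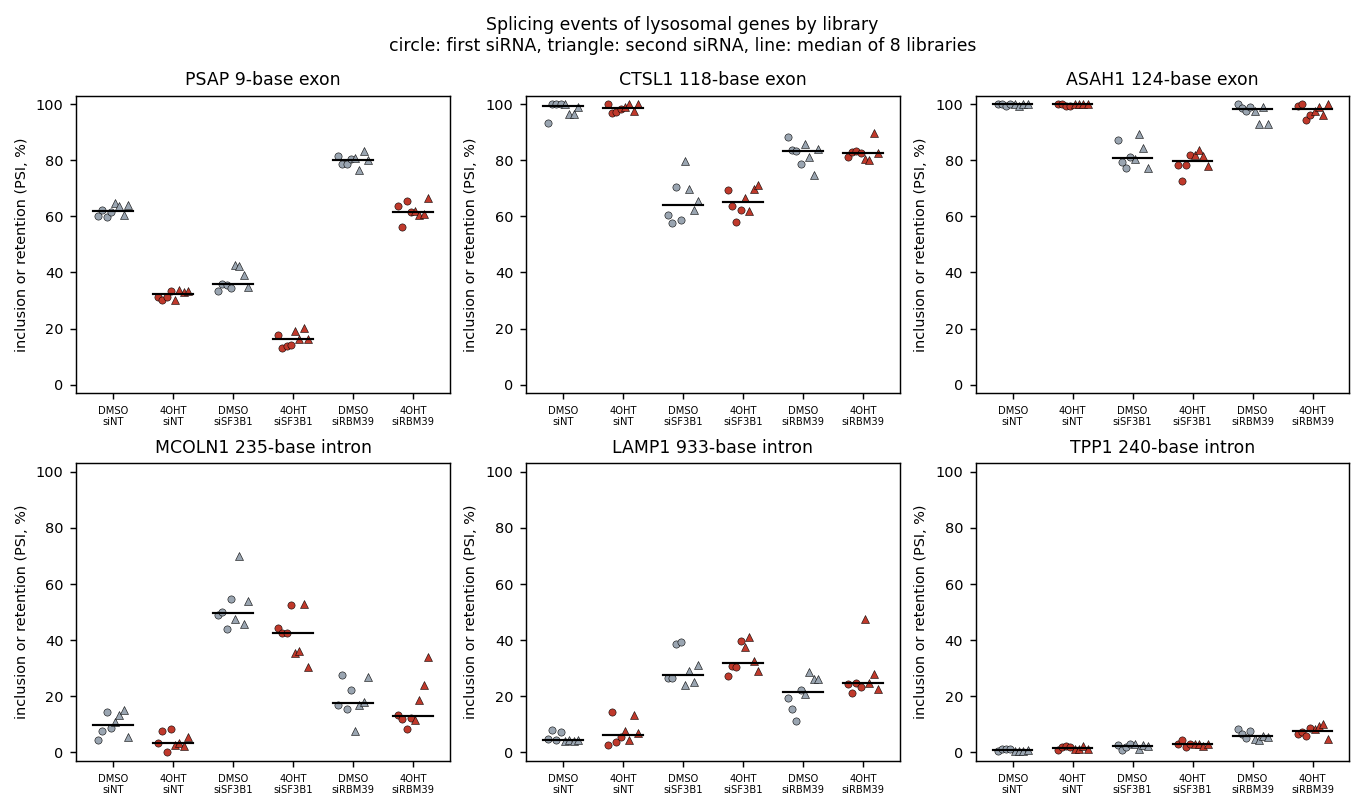
PSI (percent) of 6 splicing events of lysosomal genes in each of the 48 libraries, with 1 panel per event, 1 column per group, circles for the first and triangles for the second siRNA, and a line at the median of 8. The PSAP exon is lower with 4OHT and with siSF3B1 and higher with siRBM39, the CTSL1 and ASAH1 exons fall with siSF3B1, the MCOLN1 and LAMP1 introns rise with it, and the TPP1 intron is highest with siRBM39.

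With siRBM39, 11 of 88 events were called in DMSO (background 5.66%), 6 higher and 5 lower (1.6% and 4.06% of all events). In 4OHT, 8 were called (background 6.27%), 5 higher and 3 lower (1.6% and 4.68%). The PSAP exon had the largest difference in both. The CTSL1 exon was 74.7–88.1% (median 83.4%) in DMSO siRBM39 and 80.1–89.7% (median 82.6%) in 4OHT siRBM39, -15.7 and -15.7 points, without overlap with siNT. The 933-base LAMP1 intron was 11.4–28.8% (median 21.6%) and 21.1–47.4% (median 24.6%) (16.1 and 19.7 points), again without overlap. The MCOLN1 intron was 7.5–27.5% (median 17.4%) and 8.47–33.9% (median 12.9%) (8.94 and 12.7 points). Its ranges overlapped siNT in DMSO (adjusted p = 0.046), where neither siRNA alone passed the test.

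A TPP1 intron of 240 bases was called after siRBM39. Its PSI was 0.41–1.33% (median 0.805%) in DMSO siNT, 1.00–3.13% (median 2.44%) in DMSO siSF3B1 and 4.3–8.28% (median 5.68%) in DMSO siRBM39. In 4OHT the values were 1.00–2.22% (median 1.58%), 1.95–4.36% (median 2.96%) and 4.76–10.3% (median 7.69%), and the differences with siRBM39 were 5.18 and 6.01 points (adjusted p = 3.03e-11 and 3.66e-10). The siRBM39 ranges lay above the siNT ranges, and the change with siSF3B1 was 1.35 and 1.35 points, below the minimum of 5 points, with overlapping ranges. A 172-base exon of SMPD1 was lower in 4OHT siRBM39, at 79.3–96.3% (median 89%) against 91.1–100% (median 96.9%) in 4OHT siNT (-7.49 points, adjusted p = 0.00684), with overlapping ranges and with neither siRNA past the threshold alone. The remaining calls were HEXA exons of 73 bases (-5.49 points in DMSO) and 47 bases (-5.16 and -7.23), an ATP6AP2 exon (-5.08 in DMSO), a CTSC alternative 3' site (-5.54 in DMSO) and a MANBA exon of 173 bases that rose by 7.65 points in DMSO. None of the 88 events had an interaction past the threshold for either knockdown by limma (0 and 0 events, against 0.311% and 0.00723% of all events), with 10 and 6 events at an unadjusted p under 0.05.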

How the data were processed

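The authors deposited RNA-seq counts per gene, made by vast-tools from reads of an mRNA capture library, and from the same run the RPKM per gene corrected for mappability (cRPKM) and, per splicing event, the percent spliced in (PSI) with its read support. The deposited normalised CPM were not used. The sources name edgeR and limma for the original analysis, without versions. Counts of 12535 genes with at least 1000 counts in total were normalised by TMM and tested with edgeR 4.0.16 (quasi-likelihood, 6 group means with both siRNAs pooled, as in the original design) in R 4.3.3, at a Benjamini-Hochberg adjusted p under 0.05. CPM in the text use the TMM-scaled library sizes. The 13839 events covered in all libraries whose PSI varied by 5 points or more and that had, for introns, no failed balance test were tested with limma 3.58.1 on the logit of 0.01 + 0.98 × PSI as a fraction, with a minimum difference of 5 points. Both tests were tried on simulated data. Alternatives were limma-voom, DESeq2 1.42.0 and its size factors, other minimum counts and event filters, a replicate block, each siRNA or control alone, and leaving out replicates. The 39 genes and the gene lists were chosen with earlier results of these data known. For each comparison, GLB1, TFEB and the 3 members that rose most and the 3 that fell most were to be named with their values, as were the 3 exons and 3 introns with the largest differences per knockdown in 4OHT and the events with the largest differences under RAS, with the sequences of such events and of promoters holding the motif. Other members named were chosen after their values were seen. Depth was 31467221 to 52734636 counts, and CPM of low genes are the least precise. For 4 of the 4OHT siNT libraries the labels disagree on which siNT was used, and the titles were followed. The labels give 4 replicates per siRNA where the methods give 3, and the methods call in vitro replicates independent experiments in general, without saying what the numbered libraries of this experiment share. Of 389 cassette exons of these genes, 367 equal an annotated exon at GRCh38 and 0 at GRCh37. Some items are not reported here.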

Additional observations from a re-analysis of the deposited data

Results flagged for a closer look

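Of 198 groups of 8 libraries examined for a value that stands apart by Dixon's criterion, 24 held one, where chance gives about 1 in 20. Replicate 4 of siRBM39-08 in 4OHT gave 15 of them. There, TFEB was at 6.95 CPM (nearest library 2.86), CTSD at 1180.0 (558), CTSF at 17.7 (9.26), GAA at 98.7 (51.5), HEXA at 92.1 (74.1), SMPD1 at 138 (115), FUCA2 at 166.6 (139) and M6PR at 230.1 CPM (199.7), all above the rest of the group. CTSS was at 98.7 CPM (165), NPC1 at 69.6 (109), CTSC at 60.0 (85.8), LIPA at 40.98 (62.3), TPP1 at 122 (209.6) and SCARB2 at 147 CPM (231), all below it, and the PSI of the NPC1 intron was 15.2% (7.04%). The same library held the high fibroblast and epithelial marker sums given above.

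Replicate 1 of siRBM39-06 in DMSO was apart for GAA at 118 CPM (nearest library 88.4), CTSD at 650.1 CPM (497) and the NPC1 intron at 17.1% (4.37%). Single values stood apart for CTSH at 2.51 CPM (2.27) in replicate 1 of siSF3B1-16 in 4OHT, for the CTSL1 exon at 89.7% (83.3%) in replicate 3 of siRBM39-08 in 4OHT, for the MANBA exon at 98.4% (100%) in replicate 2 of siNT2 in 4OHT, for the MCOLN1 intron at 70.0% (54.8%) in replicate 2 of siSF3B1-16 in DMSO, for the LAMP1 intron at 47.4% (27.9%) in replicate 1 of siRBM39-08 in 4OHT and for the TPP1 intron at 4.36% (3.03%) in replicate 2 of siSF3B1-13 in 4OHT.

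The effect of siSF3B1 differed between 4OHT and DMSO, by edgeR's interaction test, for TFEB (-1.27 on the log2 scale), CTSF (0.67), CTSK (0.65), NPC1 (0.37), MANBA (0.27), CTSA (0.25), LGMN (0.24), HEXA (0.23) and M6PR (-0.19). That of siRBM39 differed for CTSS (-0.59), CTSK (0.40) and MANBA (0.26).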

How the results depend on the processing

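Counts of called genes in the 5 comparisons within a treatment or siRNA moved by at most 1.5 times in the alternatives run. For the siSF3B1 interaction, 9 genes became 3 with siNT1 alone as control, 12 without 4OHT siRBM39-08 replicate 4 and 5 to 11 when each replicate was left out. For the siRBM39 interaction, 3 genes became 1 with siNT1 alone, 6 without 4OHT siRBM39-08 replicate 4 and 3 to 5 when each replicate was left out. With siRBM39-06 alone 11 passed, 4 higher and 7 lower, and with siRBM39-08 alone 11 passed, 10 higher and 1 lower. The siRNAs thus differed in direction, and each shared 3 calls with the pooled test. For called events, in the order siSF3B1 in DMSO, siSF3B1 in 4OHT, siRBM39 in DMSO and siRBM39 in 4OHT, the counts were 36, 38, 23 and 21 with no minimum difference, 8, 9, 4 and 4 with a minimum of 10 points, and 4, 4, 3 and 3 with the plain logit on PSI of 1 to 99, where 8 events were left. With 10 points, 1 event was called for RAS. For siRBM39 in DMSO, 7 to 9 events were called when each replicate was left out and 5 with siRBM39-08 alone, and 1 event passed the siSF3B1 interaction with siSF3B1-13 alone. The cause of these changes was not tested beyond the smaller number of libraries or events. Same-numbered libraries did not deviate together (median r 0.0075 over 264 pairs), and with a replicate block 33, 30, 26, 30 and 27 genes and 3, 17, 18, 11 and 8 events were called in the 5 comparisons, and 9 and 3 genes in the interactions. Of 38 named member results 32 passed the threshold in every alternative, and 0 reversed. Depth limits TFEB, CTSH, FUCA1 and, in DMSO, CTSS, which lay below 10 CPM.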
